A study of Mus musculus with 2 samples.

Results

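The NRF2 antioxidant genes examined here were *Nfe2l2*, which encodes the transcription factor NRF2, *Keap1*, which encodes its inhibitor, and 8 genes that NRF2 is known to activate, *Hmox1*, *Srxn1*, *Txnrd1*, *Nqo1*, *Gsta4*, *Gclc*, *Gclm* and *Gpx2*. These 10 genes were selected by symbol from the 25810 symbols in the deposited files, and all 10 were found. They were measured in lineage-depleted mammary epithelial cells (MECs) from the inguinal glands of mice on lactation day 3, with 1 poly(A) RNA library from WT mice and 1 from *Igfbp7*-/- mice (labelled KO), in which the exon that begins the *Igfbp7* coding sequence is deleted in the germline. The lineage depletion was meant to remove leukocytes (CD45), erythroid cells (Ter119) and endothelial cells (CD31 in the methods, whereas the labels name CD35). The paper reports a flow cytometry check after the depletion in which few cells still carried these markers, a contamination it deemed insignificant. The labels give C57BL/6 as the genetic background of both groups, whereas the methods state that the knockout was made on CD1, and neither gives the age of the mice or how many were pooled in a library. Because each genotype had 1 library, no difference has a replicate check, and every interval below covers the counting of reads only.

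NRF2 is a basic leucine zipper protein that pairs with a small MAF protein and binds antioxidant response elements in DNA. In unstressed cells KEAP1 holds NRF2 for ubiquitination by the CUL3 ligase, and electrophiles or oxidants that modify cysteines of KEAP1 let NRF2 accumulate, so that much of its control lies at the level of protein. Its targets supply glutathione, reduce thioredoxin and peroxiredoxins, break down heme and detoxify quinones and aldehydes. Milk synthesis runs on intense oxidative metabolism, and these enzymes limit the damage that its by-products can do.

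Promoter sequences show whether the core of the antioxidant response element lies close to the start of these genes. RefSeq promoter windows (GRCm38.p6, 250 bases before to 50 bases after a start) were matched for 7 of the 10 genes, with 9 windows in all, and *Hmox1*, *Gclc* and *Gsta4* were not matched. The core TGACNNNGC, searched on both strands, was found in 4 of the 7 genes, *Nfe2l2*, *Srxn1*, *Gclm* and *Txnrd1*, whereas 14.0% of 27025 genes with a window held it. With the looser core TGANNNNGC, 6 of the 7 genes held a match, against 45.0% of all genes, and *Nqo1* had none within its window. Elements farther from the start than these windows reach were not searched, so a gene without a match can still have one. Of the 4 genes with the stricter core 3 were at least 1.5 times lower in *Igfbp7*-/- MECs, *Nfe2l2* only just, and *Gclm* was not. By this measure 6 of all 10 genes were lower, against 23.0% of the 14026 genes compared. *Nqo1*, without a match, was lower as well. Whether the motif relates to the ratio was not tested. The 250 bases before the start are printed for these 4 genes, with every match to either core in capitals.
Srxn1, chr2:152105274-152105523, plus strand: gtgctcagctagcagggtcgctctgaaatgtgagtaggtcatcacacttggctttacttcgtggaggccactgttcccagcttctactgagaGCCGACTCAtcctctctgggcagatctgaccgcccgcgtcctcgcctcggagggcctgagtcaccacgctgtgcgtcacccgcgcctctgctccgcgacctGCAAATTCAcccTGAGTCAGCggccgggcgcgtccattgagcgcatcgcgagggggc
Txnrd1, chr10:82858956-82859205, plus strand: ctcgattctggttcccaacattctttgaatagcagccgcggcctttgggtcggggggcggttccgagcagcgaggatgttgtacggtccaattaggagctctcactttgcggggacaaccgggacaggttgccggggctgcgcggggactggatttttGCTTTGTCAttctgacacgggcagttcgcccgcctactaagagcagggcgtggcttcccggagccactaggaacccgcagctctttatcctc
Nfe2l2, chr2:75704664-75704913, minus strand: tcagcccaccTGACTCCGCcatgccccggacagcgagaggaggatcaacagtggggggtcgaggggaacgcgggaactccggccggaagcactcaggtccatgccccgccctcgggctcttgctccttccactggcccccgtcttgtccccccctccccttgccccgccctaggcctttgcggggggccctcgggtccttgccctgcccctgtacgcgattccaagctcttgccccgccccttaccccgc
Gclm, chr3:122245307-122245556, plus strand: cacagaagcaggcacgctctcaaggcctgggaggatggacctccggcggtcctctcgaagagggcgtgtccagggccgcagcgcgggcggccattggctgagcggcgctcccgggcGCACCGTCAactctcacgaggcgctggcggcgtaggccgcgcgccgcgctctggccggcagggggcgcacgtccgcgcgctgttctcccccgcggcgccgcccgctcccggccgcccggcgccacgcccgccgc
In *Srxn1* the stricter core, read as TGACCTAGC on the opposite strand, began 29 bases after the start and is outside the stretch printed. Its match TGAGTCAGC, which began 45 bases before the start, overlaps the AP-1 core TGACTCA on the opposite strand. *Srxn1* held that AP-1 core at 2 positions, 102 and 45 bases before the start, and no other window of these genes held it, whereas 5.95% of all genes did. The match in *Txnrd1* began 92 bases before the start of the second of its 3 windows, that in *Nfe2l2* 240 bases before, and that in *Gclm* 134 bases before. A match describes the sequence and does not show that NRF2 binds there.

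The WT library held 34327854 mapped reads and the *Igfbp7*-/- library 35016847. The deposited unit RPM is the count per 1000000 of these mapped reads, but the reads that fell outside the listed genes were 17.6% in WT and 27.7% in *Igfbp7*-/-, and ribosomal RNA took 2.95% and 3.15%. *Igfbp7* was present at 152.2 RPM in the WT and 1.06 RPM in the *Igfbp7*-/- library, as the labels say. The 8 luminal markers, fixed as 1 list, are given in 2 parts whose sums differed in opposite directions. Luminal keratins and *Epcam* were present at 962.2 and 2737 RPM in sum, and the milk genes with *Elf5* at 67357 and 24121 RPM. Of the 8, 3 were higher and 3 lower by at least 1.5 times (summed 68319 and 26857 RPM). Luminal epithelium was thus present, but markers of other cells were also present and most were lower in *Igfbp7*-/-. Of all 14026 genes that reached 1 RPM in either library, 23.0% were lower and 21.4% higher by at least 1.5 times. Of the markers that reached 1 RPM in either library, those lower by at least 1.5 times numbered 6 of 7 for basal and myoepithelial cells (summed 3141 and 1052 RPM), 6 of 7 for endothelium (1260 and 406.4 RPM) and 4 of 7 for fibroblasts (9111 and 4646 RPM), with none higher. For macrophages 6 of 10 were lower and none higher. Their summed level was 731.2 and 786.6 RPM, or 261.4 and 109.2 RPM without *Cd14*, and *Vsig4* had no reads in either library. For other leukocytes 6 of 7 were lower (82.1 and 44.8 RPM, with *Ly6g* at 0 in WT), for adipocytes 4 of 5 were lower and 1 higher (572.9 and 193.9 RPM), and for erythroid cells none of 4 passed the ratio in either direction (1067 and 1244 RPM). In such bulk libraries fewer cells of a type and less RNA per cell cannot be told apart, and the part of these shifts in the results below was not tested.

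**Figure D1:**
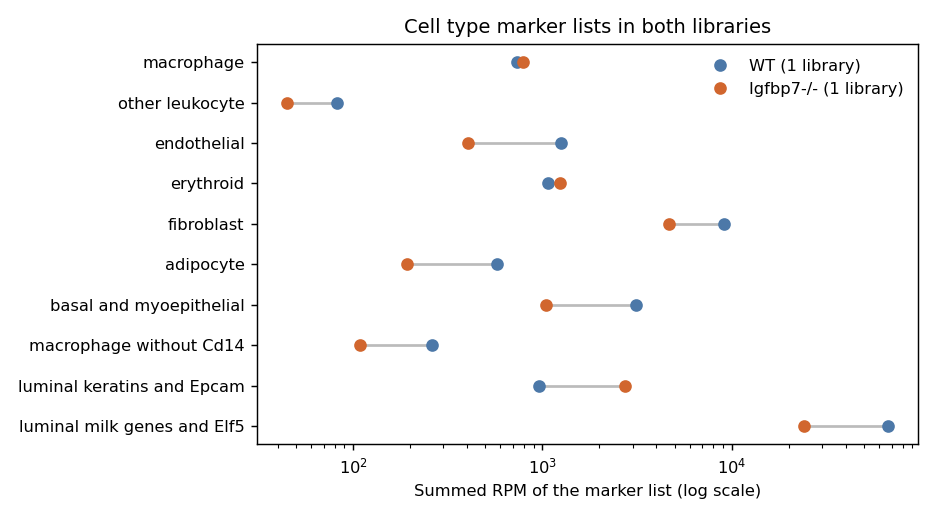
Summed RPM (log scale) of the cell type marker lists in the WT (blue) and *Igfbp7*-/- (orange) library, 1 library each. The luminal markers, fixed as 1 list, are drawn divided into keratins with *Epcam* and milk genes with *Elf5*. Basal, endothelial, fibroblast, adipocyte and other leukocyte sums lie to the left in *Igfbp7*-/-. The luminal milk genes with *Elf5* also lie to the left, at 24121 against 67357 RPM. Luminal keratins and *Epcam* lie to the right, at 2737 against 962.2 RPM, as does the erythroid sum, at 1244 against 1067 RPM. *Cd14* sets the macrophage sum, which is therefore also drawn without it.

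The question put to the 10 genes was how their transcripts differed when *Igfbp7* was lost. Of the 10 genes, 6 stood at least 1.5 times lower in the *Igfbp7*-/- library and none at least 1.5 times higher. Of the 14026 genes that reached 1 RPM in either library, 23.0% were lower and 21.4% higher by this measure. The lower genes were *Nfe2l2* itself, the heme oxygenase *Hmox1*, the thiol reductases *Srxn1* and *Txnrd1*, the quinone reductase *Nqo1* and the glutathione transferase *Gsta4*. The genes within 1.5 times were *Keap1*, both subunits of the glutathione-synthesizing ligase, *Gclc* and *Gclm*, and *Gpx2*. Over the 10 genes the log2 ratio (*Igfbp7*-/- over WT) had a median of -0.65, against 0.03 over the 14026 genes, whose quartiles were -0.52 and 0.51. Ratios were formed after 0.1 RPM was added to both values. All 10 genes reached 1 RPM in at least 1 library, but *Gsta4* did so only in WT, and *Gpx2* barely did in either.

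**Figure D2:**
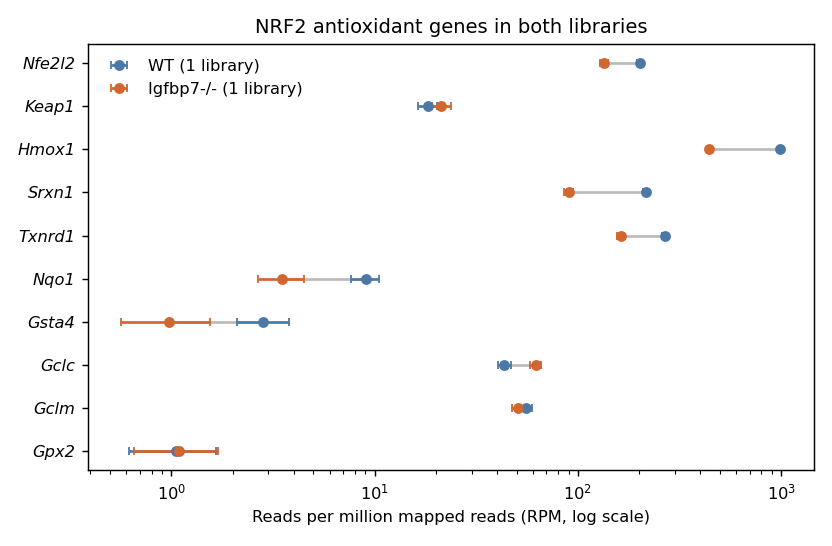
RPM (log scale) of the 10 genes in the WT (blue) and *Igfbp7*-/- (orange) library, 1 library each; bars are exact 95% Poisson intervals on read pairs and cover counting error only. *Hmox1* was the most abundant, at 988.7 and 442.1 RPM, and the values of *Gpx2* lie on each other.

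*Nfe2l2*, on chromosome 2 (NCBIM37, 75513570 to 75542698, minus strand), gave 6943 WT reads (202.3 RPM) against 4711 *Igfbp7*-/- reads (134.5 RPM). On the log2 scale this is -0.59 (-0.66 to -0.51, the 95% Clopper-Pearson bounds), which puts *Nfe2l2* just past the ratio of 1.5. *Keap1*, on chromosome 9 (21034174 to 21043776, minus strand), the adaptor that hands NRF2 to the CUL3 ligase, gave 626 WT reads (18.2 RPM) against 747 *Igfbp7*-/- reads (21.3 RPM). Its log2 ratio was 0.23 (0.01 to 0.45), higher in *Igfbp7*-/- by less than 1.5 times and barely beyond counting error. The transcripts of the factor and of its inhibitor thus differed in opposite directions. Per gene length, *Nfe2l2* stood at 20.1 times the level of *Keap1* in WT (81.9 and 4.08 RPKM, that is RPM per kilobase) and at 11.4 times in *Igfbp7*-/- (54.5 and 4.77 RPKM). This quotient was 0.568 times as large in *Igfbp7*-/- (exact conditional 95% interval 0.483 to 0.668), and no scaling of the libraries enters it. This pair and the pairs compared below were chosen after their values were seen, and their intervals do not allow for that choice.

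*Hmox1*, on chromosome 8 (77617490 to 77624495, plus strand), encodes the inducible enzyme that opens heme into biliverdin, iron and carbon monoxide. It was the most abundant of the 10 genes, with 33941 WT reads (988.7 RPM) against 15481 *Igfbp7*-/- reads (442.1 RPM), a 2.24-fold lower level (log2 ratio -1.16, interval -1.20 to -1.12). Per gene length it ranked 51 in WT (605.1 RPKM) and 118 in *Igfbp7*-/- (270.6 RPKM), among those of the 14026 genes that have an RPKM. *Hmox1* made up 54.8% of the summed RPM of the 10 genes in WT and 45.6% in *Igfbp7*-/-. Macrophages that take up red cells also express *Hmox1*. Of the 10 macrophage markers that reached 1 RPM, *Fcgr1*, *Adgre1*, *Lyz2*, *Mpeg1*, *Cd68* and *Csf1r* were lower, with log2 ratios from -3.15 to -0.85. The other 4 were within 1.5 times, namely *Mrc1* (-0.57), the scavenger receptor *Cd163* (-0.06), *Itgam* (0.39) and *Cd14* (0.53). The part of these cells in the *Hmox1* difference was not tested. The constitutive isoenzyme *Hmox2* had 23.7 RPM in WT and 16.4 RPM in *Igfbp7*-/- (log2 ratio -0.53), and *Hmox1* relative to *Hmox2* was 0.646 times as high in *Igfbp7*-/- (0.553 to 0.756).

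The 2 genes that keep protein thiols reduced were both abundant and both lower. *Srxn1*, on chromosome 2 (151931252 to 151937112, plus strand), encodes sulfiredoxin, which repairs hyperoxidized peroxiredoxins, and gave 7398 WT reads (215.5 RPM) against 3151 *Igfbp7*-/- reads (90.0 RPM). Its level was 2.39-fold lower (log2 ratio -1.26, interval -1.35 to -1.17), and the gene ranked 514 by RPKM in WT and 1275 in *Igfbp7*-/-. The printed promoter of *Srxn1* held 3 matches to the looser core, and whether these relate to its ratio was not tested. *Txnrd1*, on chromosome 10 (82296696 to 82360469, plus strand), encodes the cytosolic thioredoxin reductase, a selenoprotein, and gave 9196 WT reads (267.9 RPM) against 5691 *Igfbp7*-/- reads (162.5 RPM). Its level was 1.65-fold lower (log2 ratio -0.72, interval -0.79 to -0.65). The mitochondrial enzyme *Txnrd2* differed the other way, with 103 WT reads (3.00 RPM) against 186 *Igfbp7*-/- reads (5.31 RPM), or 0.80 on the log2 scale (0.31 to 1.33). The intervals of *Txnrd1* and *Txnrd2* lay on opposite sides of a ratio of 1. *Txnrd1* relative to *Txnrd2* was 0.346 times as high in *Igfbp7*-/- (0.241 to 0.493).

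*Nqo1* and *Gsta4*, which encode detoxifying enzymes, had the lowest ratios on few reads. *Nqo1*, on chromosome 8 (109912125 to 109927106, minus strand), reduces quinones in a step that bypasses reactive semiquinones, and gave 310 WT reads (9.03 RPM) against 122 *Igfbp7*-/- reads (3.48 RPM). Its level was 2.55-fold lower (log2 ratio -1.35, interval -1.83 to -0.94). The related *Nqo2* had 7.08 RPM in WT and 3.31 RPM in *Igfbp7*-/- (log2 ratio -1.07), so *Nqo1* relative to *Nqo2* did not differ beyond counting error (0.828 times, 0.526 to 1.30). *Gsta4*, on chromosome 9 (78039773 to 78057155, plus strand), conjugates the lipid aldehyde 4-hydroxynonenal to glutathione, and gave 97 WT reads (2.83 RPM) against 34 *Igfbp7*-/- reads (0.971 RPM). Its log2 ratio of -1.45 was the lowest of the 10, but the interval was wide, from -2.45 to -0.73, and overlapped those of *Nqo1*, *Srxn1* and *Hmox1*. Among all 14026 genes, 7.72% had a lower ratio than *Gsta4* and 8.68% a lower ratio than *Nqo1*. Reads can be shared between alpha class transferases, but *Gsta1*, *Gsta2* and *Gsta3* had no more than 12 reads each in either library.

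The ligase that starts glutathione synthesis was not among the lower genes. *Gclc*, on chromosome 9 (77602342 to 77642292, plus strand), encodes the catalytic subunit of glutamate-cysteine ligase, the rate-limiting enzyme of glutathione synthesis, and gave 1492 WT reads (43.5 RPM) against 2173 *Igfbp7*-/- reads (62.1 RPM). Its log2 ratio of 0.51 (0.38 to 0.65) was the highest of the 10 genes and corresponds to a level 1.43 times that of WT, just short of the threshold. *Gclm*, on chromosome 3 (121948475 to 121972902, plus strand), encodes the modifier subunit and gave 1915 WT reads (55.8 RPM) against 1783 *Igfbp7*-/- reads (50.9 RPM), or -0.13 on the log2 scale (-0.26 to 0.00). The balance of the subunits therefore differed, with 0.495 *Gclc* per *Gclm* on the RPKM scale in WT and 0.774 in *Igfbp7*-/-, a quotient 1.56 times as high (1.37 to 1.79). *Gpx2*, on chromosome 12 (77893322 to 77896541, minus strand), encodes a selenium-dependent glutathione peroxidase of epithelia. It was close to the minimum of 1 RPM, with 36 WT reads (1.05 RPM) against 38 *Igfbp7*-/- reads (1.09 RPM). Its interval of the log2 ratio, -0.96 to 1.06, leaves room for a difference of 1.5 times in either direction that was not detectable at this depth.

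**Figure D3:**
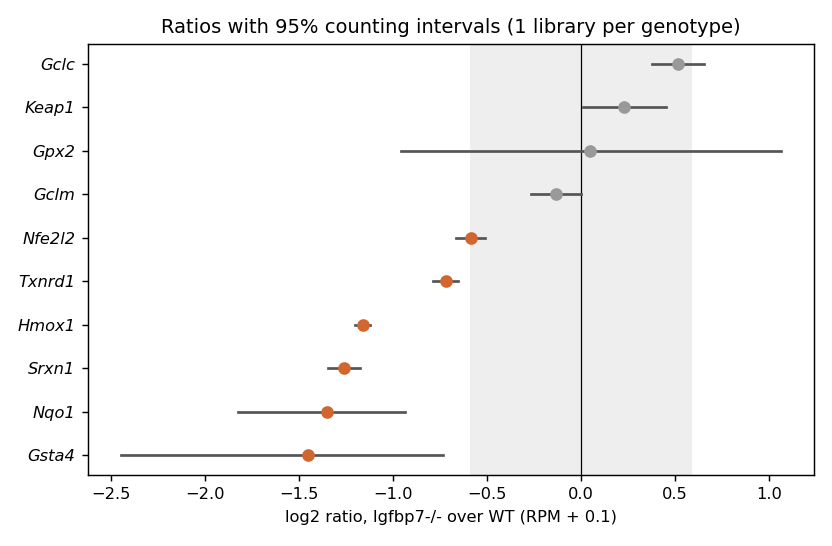
log2 ratio of *Igfbp7*-/- to WT for each of the 10 genes (points) with its 95% Clopper-Pearson interval on read pairs (lines), which covers counting error only; the grey band is a ratio under 1.5 in either direction. The 6 orange genes lie left of the band, from *Gsta4* at -1.45 to *Nfe2l2* at -0.59, and *Gclc* is highest at 0.51.

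Side by side, *Hmox1*, *Srxn1*, *Nqo1* and *Gsta4* had ratios from -1.45 to -1.16, and their intervals overlapped. *Txnrd1* and *Nfe2l2* stood at -0.72 and -0.59, and their intervals also overlapped but lay above those of *Hmox1* and *Srxn1*. *Gclm*, *Gpx2*, *Keap1* and *Gclc* followed in this order. The wide intervals of *Gsta4* and *Gpx2* overlapped that of *Txnrd1*, and those of *Keap1* and *Gpx2* overlapped that of *Gclc*. Their summed level was 1805 RPM (WT) and 969.0 RPM (*Igfbp7*-/-).

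Scaling the libraries in another way moves all ratios together and so changes which genes pass the threshold. Scaled to the reads on listed genes, all log2 ratios shifted upwards by 0.19 in the median, and 4 genes were lower by at least 1.5 times (*Nqo1*, *Hmox1*, *Srxn1* and *Gsta4*) while *Gclc* was higher, at 0.70. Under that scaling *Txnrd1* stood at -0.53, *Nfe2l2* at -0.40 and *Gclm* at 0.06, the last on the other side of a ratio of 1. Of all genes called under that scaling 62.7% were higher in *Igfbp7*-/-, against 48.2% with the deposited RPM. With edgeR's TMM and with DESeq2's size factors the same 6 genes were lower and none was higher.

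**Figure D4:**
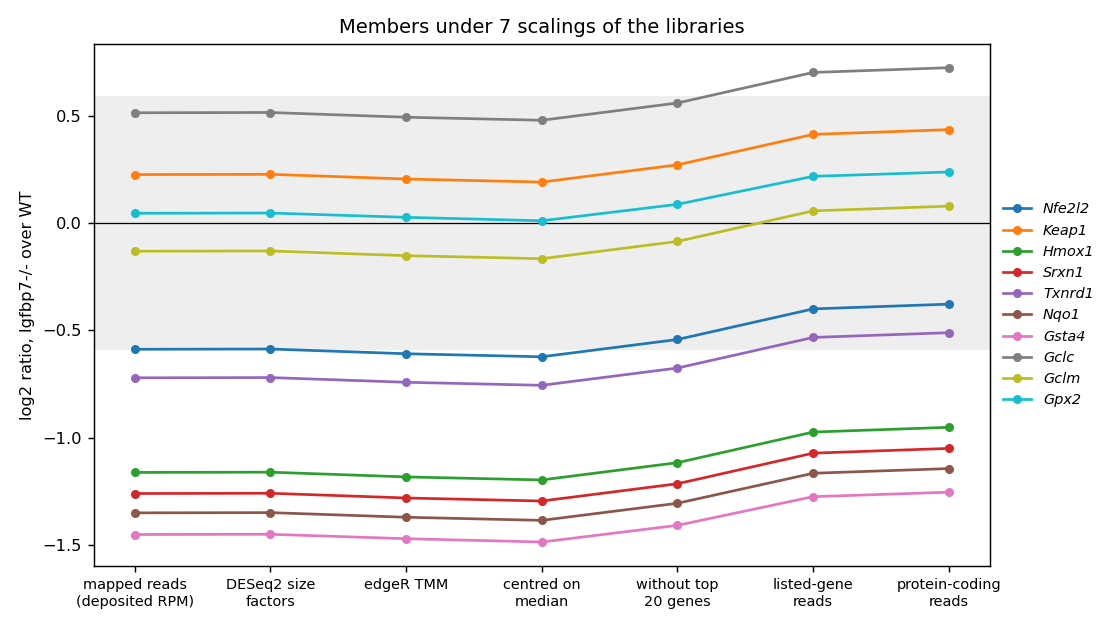
log2 ratio of *Igfbp7*-/- to WT (vertical axis) of the 10 genes under 7 ways to scale the libraries (horizontal axis); the grey band is a ratio under 1.5 in either direction. The lines run in parallel, and under the 2 scalings on the right *Gclc* leaves the band upwards while *Nfe2l2* and *Txnrd1* enter it.

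To place the 10 genes in their pathway, 9 further lists with 105 genes were examined, of which 92 reached 1 RPM in either library. Of these 105 genes, 31 were lower in *Igfbp7*-/- by at least 1.5 times and 10 were higher (33.7% and 10.9% of the 92, against 23.0% and 21.4% of all genes), with a median log2 ratio of -0.30 over the 92 genes.

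Among 14 partners and regulators of NRF2, 4 were higher (28.6%, against 21.4% of all genes) and 1, *Nfe2*, was lower (7.14%, against 23.0%). For a list of 14 the share higher was near that of all genes, and the median log2 ratio was 0.48. These counts depended on the scaling, with 8 higher and 1 lower when scaled to reads on listed genes and 2 higher and 2 lower when all ratios were centred on their median. *Nfe2* had 53 and 14 reads. On the RPKM scale (0.861 in WT and 0.223 in *Igfbp7*-/-) and with a stricter minimum it fell below the minimum and was not counted. *Nfe2l3*, which encodes a related cap'n'collar factor, gave 149 WT reads (4.34 RPM) against 2027 *Igfbp7*-/- reads (57.9 RPM), the largest ratio of the list (log2 ratio 3.71, interval 3.39 to 4.09). *Crebbp*, a coactivator of NRF2, had 89.3 and 172.6 RPM (0.95), the repressor *Bach2* 31.5 and 48.3 RPM (0.61), and the small MAF *Mafg* 27.9 and 42.5 RPM (0.60). *Bach1*, whose product competes with NRF2 for the same elements and represses *Hmox1*, was higher by less than 1.5 times, with 190.7 RPM in WT and 273.7 RPM in *Igfbp7*-/- (0.52, 0.46 to 0.59). *Nfe2l2* relative to *Bach1* was therefore 0.464 times as high in *Igfbp7*-/- (0.433 to 0.497). *Sqstm1*, which encodes the autophagy receptor p62 that can bind KEAP1, had 696.3 and 1008 RPM (0.53), and *Cul3*, the scaffold of the ligase, had 136.8 and 118.1 RPM (-0.21).

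Of 11 genes of glutathione synthesis, uptake and reduction, 5 were lower (45.5%, against 23.0% of all genes) and 1 was higher (9.09%, against 21.4%). The median log2 ratio was -0.42. *Cth*, which makes cysteine from cystathionine, had 16.1 RPM in WT and 5.77 RPM in *Igfbp7*-/- (-1.46), *Ggt1*, which splits extracellular glutathione, 16.5 and 7.28 RPM (-1.17), and glutathione reductase *Gsr* 17.9 and 11.3 RPM (-0.66). *Chac1*, which degrades glutathione in the cytosol, was the higher gene, with 17.6 and 35.8 RPM (1.02). *Slc7a11*, the cystine transporter and another NRF2 target, had 127.7 and 95.7 RPM (-0.42) and lay within 1.5 times.

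Of 7 other glutathione peroxidases, 5 of which reached 1 RPM, 2 were lower (40.0% of the 5, against 23.0% of all genes) and none was higher. *Gpx5* and *Gpx6* had no reads in either library. Levels up to 3 reads, or 0.0874 RPM (WT) and 0.0857 RPM (*Igfbp7*-/-), could have been missed, and higher ones if 2 reads are 1 pair. The lower genes, *Gpx8* (20.1 and 9.14 RPM, -1.13) and *Gpx7* (12.8 and 6.51 RPM, -0.96), encode peroxidases of the endoplasmic reticulum. The selenium-dependent *Gpx1* (58.8 and 72.5 RPM, 0.30), *Gpx3* (123.3 and 150.0 RPM, 0.28) and *Gpx4* (20.3 and 27.9 RPM, 0.46) had ratios above 1 and within 1.5 times.

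Of 22 glutathione transferases, 15 reached 1 RPM, with a median log2 ratio of -0.66. Of these 15, 8 were lower (53.3%, against 23.0% of all genes) and 1, *Gstt2*, was higher (6.67%, against 21.4%). *Gstk1* gave 551 WT reads (16.1 RPM) against 123 *Igfbp7*-/- reads (3.51 RPM) (-2.16, -2.60 to -1.78), *Gstp1* 29.8 and 14.7 RPM (-1.01) and *Gsto1* 60.0 and 31.0 RPM (-0.95). *Gstp1* and *Gstp2* are near-identical copies, as are several mu class genes, and how reads were divided between them is not known. Of 16 genes of xenobiotic and quinone metabolism, 13 reached 1 RPM, with a median of -0.79. Of these 13, 9 were lower (69.2%) and 1, *Abcc3*, was higher (7.69%). The transporters *Abcg2*, which carries riboflavin and drugs into milk, *Abcc4* and *Abcc1* had 137.6, 16.1 and 170.3 RPM in WT and 58.4, 7.4 and 89.3 RPM in *Igfbp7*-/- (-1.24, -1.11 and -0.93). *Ugt1a6b* had 28.4 and 15.1 RPM (-0.90), but it shares exons with *Ugt1a6a*, and their reads cannot be told apart with certainty.

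Of 16 thioredoxins, peroxiredoxins and sestrins, 3 were lower (18.8%, against 23.0% of all genes) and 2 were higher (12.5%, against 21.4%). Both shares were below those of all genes, and the median log2 ratio was -0.09. *Txnip*, which encodes the thioredoxin-binding protein that inhibits it, gave 43605 WT reads (1270 RPM) against 111850 *Igfbp7*-/- reads (3194 RPM) (1.33, 1.31 to 1.35). Its partner *Txn1* had 50.8 and 29.0 RPM (-0.81), and *Prdx4*, the peroxiredoxin of the secretory pathway, 41.3 and 18.1 RPM (-1.18). *Txnrd1* relative to *Txnip*, a pair chosen after its values were seen, was 0.241 times as high in *Igfbp7*-/- (0.230 to 0.254). The peroxiredoxin *Prdx1*, a substrate of sulfiredoxin, had 256.5 and 199.8 RPM (-0.36), so that *Srxn1* relative to *Prdx1* was 0.536 times as high in *Igfbp7*-/- (0.498 to 0.578).

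The remaining lists were small. Of 5 superoxide dismutase and catalase genes, the mitochondrial *Sod2* was lower (138.6 and 88.4 RPM, -0.65) and none was higher, while *Sod1* (41.8 and 41.3 RPM, -0.02) and *Cat* (28.2 and 28.4 RPM, 0.01) were almost level. Of 6 genes that supply NADPH, the cofactor of these reductases, 2 were lower (33.3%, against 23.0% of all genes) and none was higher. The lower genes were *Tkt* (217.6 and 96.1 RPM, -1.18) and malic enzyme *Me1* (139.9 and 71.0 RPM, -0.98). Of 8 genes of heme breakdown and iron storage, 7 of which reached 1 RPM, none was lower and 1, the iron exporter *Slc40a1*, was higher (3.23 and 5.57 RPM, 0.77). The share higher, 14.3% of the 7, was below the 21.4% of all genes. *Fth1*, the ferritin heavy chain and itself an NRF2 target, was the most abundant gene of all 9 lists per gene length, with 2598 RPM in WT and 3735 RPM in *Igfbp7*-/- (0.52, 0.51 to 0.54), so *Fth1* and *Hmox1* differed in opposite directions. *Fth1* has processed pseudogenes that can take or lend reads, and its level is uncertain for that reason.

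**Figure D5:**
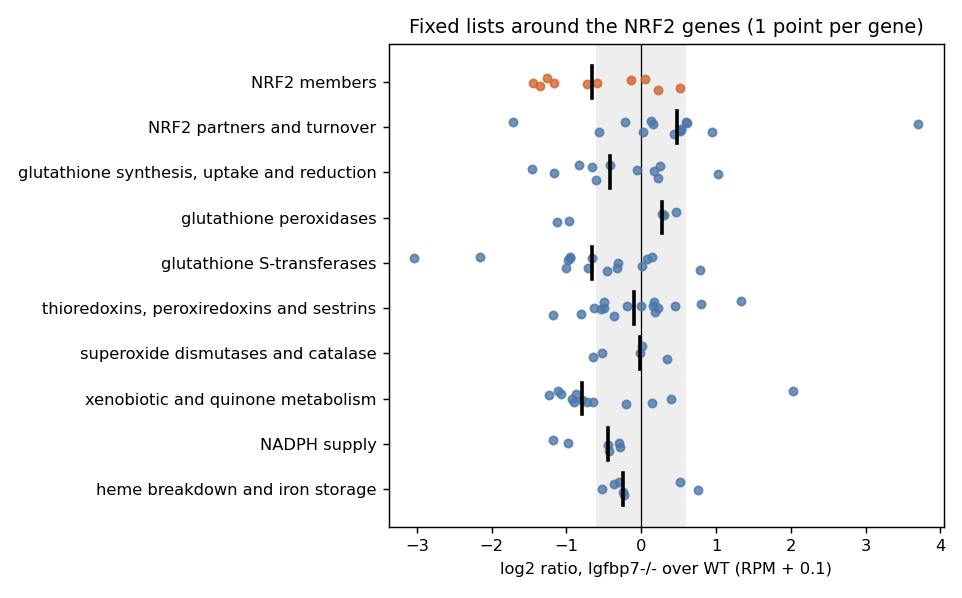
log2 ratio of *Igfbp7*-/- to WT of each gene that reached 1 RPM in either library (points), by list; black bars are medians and the grey band is a ratio under 1.5 in either direction. The medians run from -0.79 for xenobiotic and quinone metabolism to 0.48 for the partners of NRF2, where *Nfe2l3* lies far right at 3.71.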

How the data were processed

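RNA of lineage-depleted lactation day 3 MECs was selected for poly(A) and sequenced as paired ends on a SOLiD instrument with a strand-preserving kit, 1 library per genotype; whether counting used strand is not given in the sources used here. The deposited counts are reads per gene symbol, made by the authors with a Bowtie-based GeneSifter pipeline; the submitters' processing notes name Bowtie 0.12.3, SAMtools 0.1.15 and mm9, while the methods name a human build. Of counts from 1 to 20, 75.8% (WT) and 74.1% (*Igfbp7*-/-) were even, and 2 reads were therefore taken as 1 pair. The authors divided counts by all mapped reads to deposit RPM (reads per 1000000 mapped reads), and further by transcript length to deposit RPKM, which 733 rows lack. Rows without a symbol (0.0408% and 0.0484% of the mapped reads) and 0 columns of other samples were left aside.

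From these values the log2 ratio of *Igfbp7*-/- to WT was formed on RPM after adding 0.1 RPM, which understates differences of low genes. Genes with at least 1 RPM in either library were kept, and a ratio of at least 1.5 was called. With 1 library per genotype there was no test. The 95% Clopper-Pearson intervals of ratios and exact Poisson intervals of levels were computed on read pairs with scipy 1.17.1 in Python 3.11.15 and cover counting error only. A count of 0 was taken to allow 3 reads (0.0874 RPM in WT, 0.0857 RPM in *Igfbp7*-/-). This bound counts single reads, and on read pairs it would be higher. Quotients of gene pairs within a library were compared by exact conditional odds ratios, and these pairs were chosen after their values were seen. Alternatives were other pseudocounts, minima and thresholds, RPKM, edgeR 4.0.16 (TMM), DESeq2 1.42.0 (size factors), reads on listed genes, centring on the median, leaving out the 20 most abundant genes, and, chosen after seeing the data, reads on protein-coding genes. The ratio, the call and the interval of the ratio were tested on simulated counts that varied by counting error only, as the interval assumes. The motif search and the quotients of gene pairs were not part of that test.

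The 10 genes and all lists were chosen with earlier results of these data known. By rule the text names the 10 genes, *Igfbp7*, and in each pathway list up to 4 genes with the largest ratio past 1.5 and at least 10 RPM in the higher library, or else the most abundant gene by RPKM. Other genes named were chosen after their values were seen. Gene positions are from the NCBIM37 annotation (mm9) and promoters from RefSeq on GRCm38.p6.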

Additional observations from a re-analysis of the deposited data

How the results depend on the processing

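Scaling and thresholds moved the number of genes called. Of the 10 genes, 1 (*Gclc*) was higher by at least 1.5 times, and not 0, when libraries were scaled to reads on listed genes or to reads on protein-coding genes, the latter chosen after seeing the data. Among the 105 pathway genes 18 were then higher in place of 10, and 23 and 22 were lower in place of 31. These scalings moved the median of all genes by 0.19 and 0.22, and of all genes 30.5% and 31.8% were higher and 18.1% and 17.7% lower, so that 62.7% and 64.3% of the calls were higher in place of 48.2%. A minimum of 10 RPM left 6 pathway genes higher and 19 lower, and a threshold of 2 left 4 higher and 12 lower. Among the 14 partners of NRF2 the higher genes numbered 1 to 8 and the lower genes 0 to 2 over all alternatives, among the transferases the lower genes 3 to 9, among the genes of glutathione synthesis, uptake and reduction 2 to 5, and among those of xenobiotic and quinone metabolism 3 to 10. The lower genes among the 10 numbered 4 to 6 over all alternatives. *Nfe2l2* was no longer past 1.5 with a pseudocount of 1 RPM, without the 20 most abundant genes and under both scalings, and *Txnrd1* under both scalings. None of the 6 lower genes changed direction, and *Gclm*, within 1.5 times throughout, stood at 0.06 and 0.08 under these scalings. The cause of the shift was not tested. No paired analysis was possible because each genotype has 1 library and the labels carry no replicate numbers, and no library could be left out. Depth limited *Gpx2* and *Gsta4* most, with at most 97 reads in a library.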

Other observations

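Since *Txnrd1* and *Gpx2* encode selenoproteins, the genes of selenoproteins and of selenocysteine synthesis were listed after the values above were seen. Of 26 listed genes 21 were found and 19 reached 1 RPM in either library, of which 4 were higher and 3 lower in *Igfbp7*-/- by at least 1.5 times, with a median log2 ratio of 0.05. These shares, 21.1% higher and 15.8% lower, are near or below the 21.4% and 23.0% of all genes, and the counts show nothing particular to these genes. Of the 5 genes found that make or insert selenocysteine, 3 were higher, against 21.4% of all genes. These 5 were set apart after their values were seen, and no pattern is read from so few genes. *Sepsecs*, which makes selenocysteine on its tRNA, had 4.17 RPM in WT and 16.1 RPM in *Igfbp7*-/- (1.93, 1.56 to 2.34), *Secisbp2*, which binds the insertion element, 6.03 and 11.9 RPM (0.97, 0.62 to 1.33), and the elongation factor *Eefsec* 2.21 and 3.43 RPM (0.61, 0.02 to 1.26). The other 2, *Sephs2* (26.6 and 22.3 RPM, -0.26) and *Pstk* (36 and 35 reads, -0.06), were within 1.5 times. *Txnrd2* was the remaining higher gene. Besides *Txnrd1*, the lower genes were *Sepw1* (31.0 and 17.0 RPM, -0.87) and the deiodinase *Dio2* (9.73 and 3.26 RPM, -1.55). *Sepp1*, which encodes the secreted carrier of selenium, had 771.8 and 576.7 RPM (-0.42) and lay within 1.5 times. These values were measured in 1 library per genotype and have no replicate check.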
